A study of Homo sapiens with 49 samples.

Results

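Replication-dependent histone genes supply the histones that package newly copied DNA. They lie in clusters, are transcribed mainly in S phase, and give messages that end in a stem-loop instead of a poly(A) tail. The coactivator NPAT, TATA boxes, CCAAT boxes and, at many H2B genes, an octamer bound by POU2F1 are known parts of their control. The H2A, H2B, H3 and H4 families form the nucleosome core, and the H1 family binds the DNA between nucleosomes.

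The 63 genes described here were chosen by symbol and position. They are the protein-coding genes on chromosomes 1 and 6 whose symbol is H1-, H2AC, H2BC, H3C or H4C followed by a number, among 20098 protein-coding genes of chromosomes 1 to 22 and X. They comprised 6 H1, 16 H2A, 16 H2B, 13 H3 and 12 H4 genes. The group was proposed with earlier results of these data in view, among them a polymerase peak at H2AC14 that was absent after estradiol, so that peak is given as a description and was not tested. On chromosome 6 there were 51 members, in groups of 2, 28, 5 and 16 separated by more than 200000 bp. On chromosome 1 there were 12, in groups of 10 and 2.

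The peaks came from chromatin immunoprecipitation sequencing (ChIP-seq) in 2 human cancer lines. Ishikawa derives from an endometrial adenocarcinoma and T-47D from a carcinoma of the breast. Cells kept in hormone-depleted medium received 17β-estradiol (E2) at 10 nM or only its vehicle, DMSO. Proteins were mapped after 1 h and histone marks after 8 h, and SIN3A was compared between Stripped Media and Full Media. Of 45 peak lists, 21 were from Ishikawa and 24 from T-47D. RNA polymerase II (RNAPII) in T-47D had 2 libraries per treatment, and every other group was 1 library with no replicate check. Fold enrichment below is the authors' ratio of ChIP signal to background at a peak summit. A start-site peak is a peak that overlaps the 250 bp on either side of a gene's 5′ end, and a gene without one is given as 0.

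The lists held from 2 to 46282 peaks, so a missing peak can reflect a short list. As a check of the lines, H3K4me3, a mark of active promoters, was read at a few known genes. With DMSO and E2 it lay at the start of GATA3 in T-47D with fold enrichments of 14 and 13.5, and in Ishikawa with 0 and 7.21. PGR had 12.2 and 10.2 in T-47D and 18.9 and 16.8 in Ishikawa, and KRT8 18.9 and 16.8 in T-47D and 38.0 and 36.9 in Ishikawa, so neither tells the lines apart. KRT18, ESR1 and TFF1 had no start-site H3K4me3 in T-47D at the annotated 5′ end. In Ishikawa, KRT18, PAX8 and EMX2 had the mark in both lists and SOX17 with E2 alone, and in T-47D none of these 4 had it. The list labelled T-47D H3K27me3 DMSO went against the usual place of that mark of Polycomb-silenced genes, since 98.1% of the 3489 genes with a start-site peak in it also had H3K4me3. The share in the Ishikawa H3K27me3 E2 list was 99.5% of 3839 genes.

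The sequences upstream of a few members are shown because they carry the elements counted next and belong to the genes on which the results turn. All are hg19 (GRCh37), 5′ to 3′. Capitals mark TATAA as a TATA box, CCAAT as a CCAAT box, ATGCAAAT as an octamer and CACGTG as an E-box, on either strand. The first runs between the divergent start sites of H2AC14 and H2BC14 on the plus strand, chr6:27782556-27782799, and the second between those of H2BC4 and H2AC6 on the plus strand, chr6:26124155-26124372. The others are the 200 bases before the start of H1-2, chr6:26056699-26056898 on the minus strand, of H4C5, chr6:26204638-26204837 on the plus strand, and of H4C3, chr6:26103961-26104160 on the plus strand.
H2AC14 to H2BC14: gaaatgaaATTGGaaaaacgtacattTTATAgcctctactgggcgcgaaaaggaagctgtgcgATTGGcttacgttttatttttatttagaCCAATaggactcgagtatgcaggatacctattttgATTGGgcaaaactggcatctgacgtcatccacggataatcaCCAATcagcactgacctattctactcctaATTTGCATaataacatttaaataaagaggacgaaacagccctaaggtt
H2BC4 to H2AC6: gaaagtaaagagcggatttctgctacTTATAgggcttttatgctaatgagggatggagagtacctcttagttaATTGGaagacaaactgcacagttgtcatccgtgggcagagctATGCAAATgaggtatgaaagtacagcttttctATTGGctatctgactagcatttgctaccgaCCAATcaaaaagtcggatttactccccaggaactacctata
H1-2: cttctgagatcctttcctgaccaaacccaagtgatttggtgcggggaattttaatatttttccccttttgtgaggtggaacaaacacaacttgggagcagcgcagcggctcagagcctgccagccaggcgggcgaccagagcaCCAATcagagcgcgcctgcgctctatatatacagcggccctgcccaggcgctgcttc
H4C5: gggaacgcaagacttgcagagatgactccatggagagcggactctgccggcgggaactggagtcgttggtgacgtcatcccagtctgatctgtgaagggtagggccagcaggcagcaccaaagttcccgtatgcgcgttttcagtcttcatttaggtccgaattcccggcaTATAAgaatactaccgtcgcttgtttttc
H4C3: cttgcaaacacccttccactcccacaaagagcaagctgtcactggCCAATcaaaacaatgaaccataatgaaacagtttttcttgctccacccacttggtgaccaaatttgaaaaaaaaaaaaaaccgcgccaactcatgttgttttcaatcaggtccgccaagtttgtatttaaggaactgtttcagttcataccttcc

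A TATAA within 50 bases upstream was found at 44 of 63 members, or 69.8%, against 5.27% of all protein-coding genes. CCAAT, or ATTGG for the other strand, was found within 200 bases upstream of 55 members, or 87.3%, against 29.2% of all genes. The octamer ATGCAAAT, or ATTTGCAT, lay within the same distance of 19 members, or 30.2%, against 1.28%. By family it was found at 11 of 16 H2B genes and 7 of 16 H2A genes, many of which share a promoter with an H2B gene, and at 1 of 13 H3, 0 of 12 H4 and 0 of 6 H1 genes. The H3 gene was H3C12, whose annotated start shares a promoter region with H2AC17 and H2BC17. CCAAT was found at all 6 H1, 16 H2A and 13 H3 genes and at 15 H2B genes, but at 5 of 12 H4 genes. CACGTG, the E-box read by MYC and MAX, was in the start window of 0 members and of 11.1% of all genes. The stem-loop, searched as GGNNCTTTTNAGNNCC in 150 bases around the annotated gene end, was found at 45 members, or 71.4%, against 0.234% of all genes. The annotated span exceeded 1000 bp at 17 members, against a median of 508 bp over the 63, so the annotated end is not always that of the short histone message.

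Because reads with more than one placement were dropped, near-identical histone genes limit what can be seen. In 7 chromosome 1 members, H2BC18, H3C13, H4C14, H3C14, H2AC19, H3C15 and H4C15, 0% of the 50-base words in the start window had a single place in the genome when 2 mismatches were allowed, and none of the 7 had a peak in any list. The start windows of H4C14 and H4C15 were the same in all 501 bases, and those of H4C11 and H4C12 in 496 of 501. At H4C11 and H4C12 the share of such words was 8.19%, at H2AC13 and H2AC14 32.5% and at H2BC13 35.6%, so peaks there rest on part of the window. Start windows also overlapped, since 11 pairs of members start within 500 bp of each other in opposite directions. The 63 members thus had 52 groups of separate windows, and paired genes often carry the same peak.

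In all, 48 members had a start-site peak in at least 1 list and 15 in none, against 33.6% of all genes in no list. Besides the 7 repeated genes, the 15 were H2AC1, H2BC1, H1-1, H1-6, H4C7, H3C8, H4C9 and H4C13. At each of these 8 more than 80% of the window could be placed. H2AC1, H2BC1 and H1-6 are known as testis histone genes. A TATAA was found upstream of 7 of the 8, and of 32 of the 48 genes with a peak.

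In T-47D the members were occupied more often than genes at large by RNAPII, by TAF1, the large subunit of the general transcription factor TFIID, by JUN, a subunit of AP-1, and by RARA, a retinoic acid receptor. RNAPII was at 46 and 42 members in the DMSO libraries and at 44 and 40 in the E2 libraries, where the shares of all genes were 55.8%, 38.6%, 51.3% and 43.2%. TAF1 was at 32 members with DMSO and 35 with E2, against 18.3% and 22.6% of all genes. JUN was at 44 and 45, or 69.8% and 71.4%, against 48.9% and 51.3%. RARA was at 15 members, or 23.8% with an exact binomial 95% interval of 14% to 36.2%, and at 12 with E2, against 3.50% and 3.27%. With overlapping windows counted once these were 11 and 6. At a fold enrichment of at least 10, TAF1 was at 9 and 12 members, against 2.69% and 5.54% of all genes, and RARA at 4 and 0, against 1.32% and 1.11%. These intervals cover counting error only, and no test was made over the members. H3K4me3 was at 35 and 28 members, or 55.6% and 44.4%, near the 52.5% and 48.5% of all genes.

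In Ishikawa H3K4me3 was less frequent at the members than at genes at large. The shares for TAF1 and SIN3A were also lower, but lay closer to those of all genes. H3K4me3 was at 16 members with DMSO and 19 with E2, or 25.4% and 30.2%, against 58.9% and 59.7%. TAF1 was at 23 and 22, or 36.5% and 34.9%, against 51.4% and 47.2%. With E2 the exact interval of 23.3% to 48.0% holds the share of all genes, and with DMSO that of 24.7% to 49.6% lies below it. SIN3A, a corepressor scaffold, was at 19 in Stripped Media and 21 in Full Media, against 50.4% and 42.0%. In Full Media the interval of 22% to 46.3% again holds the share of all genes, and in Stripped Media that of 19.2% to 43.0% lies below it. Over the 51 members with at least 50% of the start window placeable within 2 mismatches, the shares were 31.4% and 37.3% for H3K4me3, 43.1% in both lists for TAF1, and 37.3% and 41.2% for SIN3A. JUN stood apart from these, at 12 and 24 members, or 19.0% and 38.1%, against 2.40% and 25.3%. The demethylase LSD1 was at 2 and 9 members, against 12.3% and 31.3%, and RARA at 0 and 7, against 0.557% and 6.90%. H3K27me3 was at 1 and 3, against 1.36% and 19.1%.

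**Figure D1:**
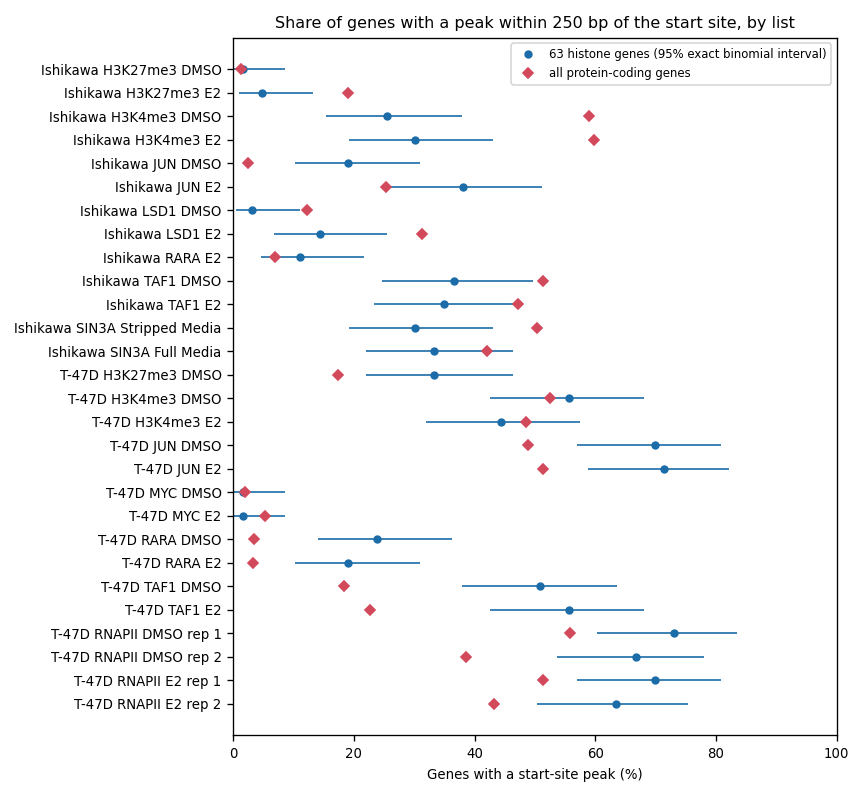
Percentage of genes with a start-site peak in each list that held at least 1 member (x axis). Blue points are the 63 histone genes with exact binomial 95% intervals, and red diamonds all 20098 protein-coding genes; the T-47D RNAPII, TAF1, JUN and RARA points lie above their diamonds, and the Ishikawa H3K4me3 points, at 25.4% and 30.2%, lie below theirs.

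The E-box factors and the enhancer mark H3K4me1 were at 0 or 1 members per list, mostly near the share of all genes. In Ishikawa, MAX was at 0 members in both lists, against 7.14% and 2.99% of all genes, and MYC at 0, against 0.00498% and 0.00995% in lists of 61 and 2 peaks. In T-47D, MAX was at 0, against 0.537% and 5.28%. MYC was at 1 member, H2AC25, in both T-47D lists, with fold enrichments of 9.27 and 9.22, against 2.01% and 5.27% of all genes. H3K4me1 was at 0 members in all 4 lists, against 2.90% and 2.23% in Ishikawa and 0.458% and 0.104% in T-47D. In 63 genes a count of 0 leaves a share of up to 5.69% within its exact interval. Only the share for Ishikawa MAX with DMSO, 7.14%, lies above it, so the other counts of 0 are near the background. For the count of 1 the interval reaches 8.53%, which holds both T-47D MYC shares. Other lists with 0 members were T-47D LSD1, at 0% and 0.00995% of all genes, T-47D SIN3A, at 0.169% and 2.53%, T-47D H3K27me3 with E2, at 0%, and Ishikawa H3K36me3, a mark of transcribed gene bodies, at 0%.

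How strong the peaks were relative to those of other genes depended on the target. The median fold enrichment of T-47D JUN start-site peaks was 23.5 and 30.9 at the members and 15.7 and 21.7 at all genes. For Ishikawa H3K4me3 it was 12.2 and 12.3 at the members and 21.0 and 22.7 at all genes. For T-47D RNAPII the members lay below all genes in DMSO replicate 1, at 42.4 and 52.1, and above them in DMSO replicate 2, at 18.4 and 13.4.

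The lines differed at a large set of members. Start-site peaks were found in T-47D and in no Ishikawa list at 23 members, or 36.5%, against 4.31% of all genes, in Ishikawa and in no T-47D list at 2, against 6.11%, and in both lines at 23. With the H3K27me3 lists left out, a choice made after seeing the data, the members with a peak numbered 46 in T-47D and 25 in Ishikawa, as with them. The 2 Ishikawa members were the divergent pair H2BC11 and H2AC11, which had a JUN peak with E2 alone. Of the 13 H3 genes, which encode a core histone of the nucleosome, 9 had a peak in T-47D and 2 in Ishikawa, H3C2 and H3C12. H3C12 is annotated over 2792 bp, and its start-site values in the Ishikawa lists were those of H2AC17, with which it shares a promoter region. Its Ishikawa peaks were therefore not told apart from those of H2AC17. By family, T-47D and Ishikawa had peaks at 4 and 2 H1, 13 and 9 H2A, 13 and 8 H2B, and 7 and 4 H4 genes.

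H3K4me3 showed the line difference in both treatments. It was in both T-47D lists and neither Ishikawa list at 13 members, or 20.6%, against 1.43% of all genes. These were H3C1, H3C3, H4C3, H4C4, H3C4, H2AC8, H3C6, H1-3, H3C7, H2AC12, H3C10, H1-5 and H3C11. The reverse held at H2BC6 alone, against 7.79% of all genes. Under DMSO, TAF1 was in T-47D alone at 13 members, against 0.318% of all genes, although the T-47D TAF1 list was the shorter, with 4591 peaks against 19349, and in Ishikawa alone at 4, against 33.4%. With peaks of a fold enrichment of at least 10 the order turned, with 4 members in T-47D alone and 15 in Ishikawa alone, against 0.0697% and 42.7% of all genes. JUN under DMSO was in T-47D alone at 32 members, where 46.7% of all genes were, so that count is near the background.

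H4C3, an H4 gene, is an example of the members seen in T-47D alone. It had no peak in any of 21 Ishikawa lists. In T-47D its fold enrichment was 8.82 and 9.36 for H3K4me3 with DMSO and E2, and 51.7, 27, 33.0 and 23.4 for RNAPII in DMSO replicates 1 and 2 and E2 replicates 1 and 2. All of its 50-base words had a single place, as had those of H1-3, H1-5 and H3C1. H3C6, an H3 gene, had H3K4me3 of 19.3 and 16.4, the latter the highest member value in the E2 list. Its start window had neither JUN nor H3K27me3, and its body had a JUN peak of 14.4 with E2.

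Members seen in most lists were H3C2, in 24 of 45, H2AC21 and H4C8, in 23, and H1-4, H2AC25, H2AC6, H2BC4 and H4C5, in 21. H3C2 encodes H3 and lies at chr6, start site 26032327. Its fold enrichments in Ishikawa were 12.2 and 20.1 for H3K4me3, 22.9 and 20.3 for TAF1, 17.8 and 22.8 for JUN, and 40.7 and 15.7 for SIN3A in Stripped and Full Media. In T-47D they were 17.3 and 8.49 for H3K4me3, 7.73 and 7.0 for TAF1, and 31.2 and 44.5 for JUN. The SIN3A value was the highest of the 19 members in that list. H4C1, an H4 gene, had the highest member value of H3K4me3 in both Ishikawa lists, 21.1 and 31.4, and in T-47D with DMSO, 22. For JUN in T-47D the highest values were 37.2 at H3C10 with DMSO and 53.5 at H1-4 with E2. H1-2, a linker histone, had the highest member value of Ishikawa TAF1 with DMSO, at 29.4, and of RNAPII DMSO replicate 1, at 95.1.

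**Figure D2:**
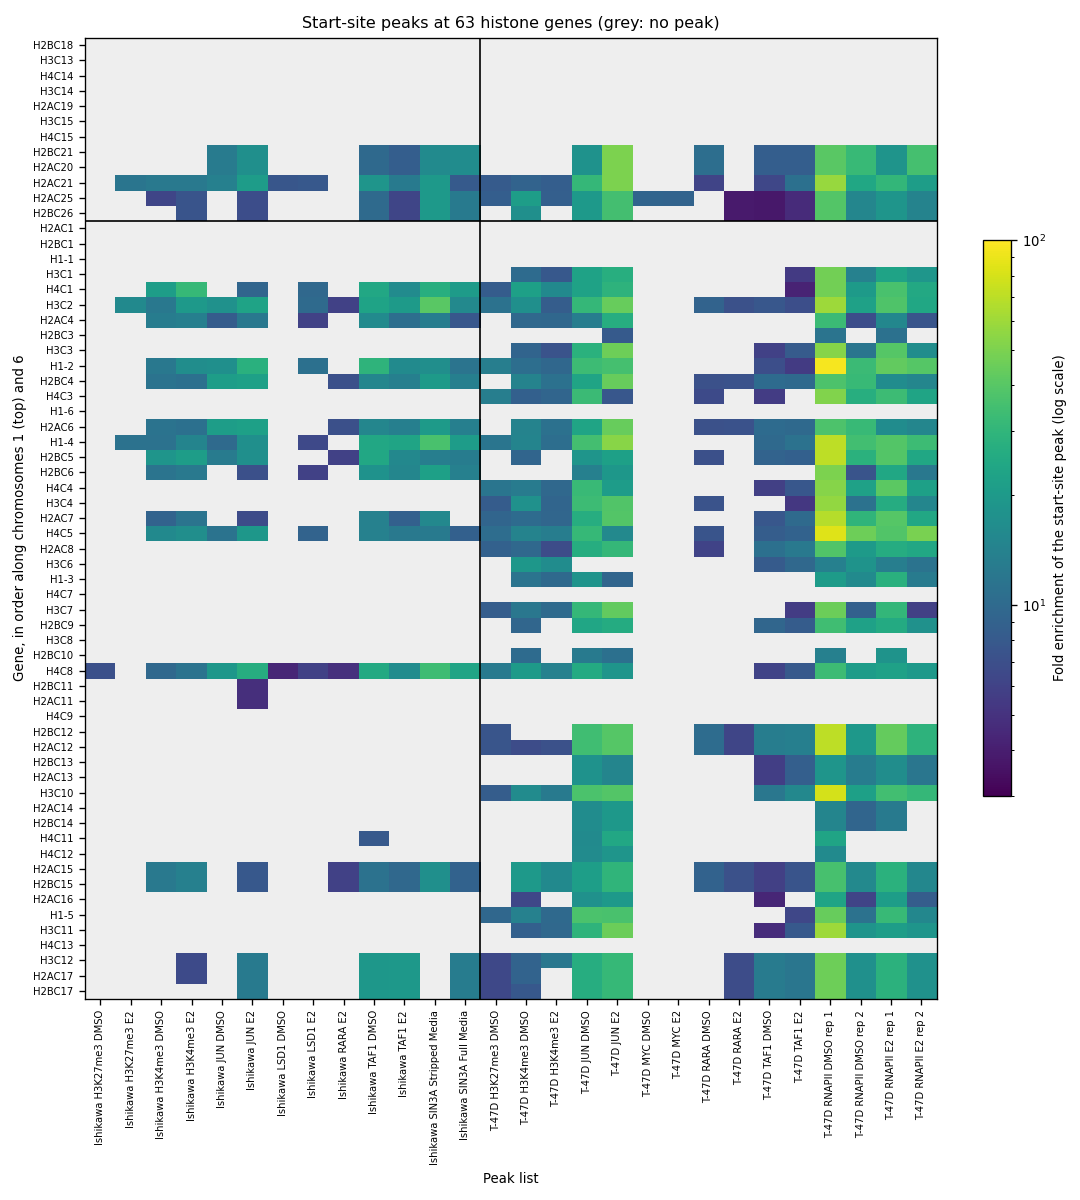
Fold enrichment (log colour scale) of the start-site peak of each of the 63 members (rows, along chromosome 1 above the line and chromosome 6 below it) in each list that held at least 1 member (columns, Ishikawa left of the line and T-47D right of it). Grey means no peak; 15 rows are grey throughout, and 23 have peaks right of the line alone.

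The chromosome 1 and chromosome 6 members differed in the share with a peak, and the 7 repeated genes are all on chromosome 1. On chromosome 1, 5 of 12 members had a peak in any list, and on chromosome 6, 43 of 51. In the T-47D RNAPII lists the chromosome 1 share was 41.7% in each, and the chromosome 6 share ran from 68.6% to 80.4%. The same 5 members, H2BC21, H2AC20, H2AC21, H2AC25 and H2BC26, were occupied in all 4. Among members with at least 50% of the start window placeable within 2 mismatches, a limit chosen after seeing the data, 5 of 5 on chromosome 1 and 38 of 46 on chromosome 6 had a peak. In Ishikawa the shares were closer, with TAF1 under DMSO at 41.7% and 35.3%. Within chromosome 6, the group of 28 members had T-47D peaks at 24 and Ishikawa peaks at 12, the group of 16 at 15 and 6, the group of 5 at 2 and 2 and the pair H2AC1 and H2BC1 at none.

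E2 was compared with DMSO in each line through gained and lost start-site peaks, without replicates. In Ishikawa, JUN was gained at 12 members, against 23.0% of all genes, and lost at 0, against 0.0299%. LSD1 was gained at 7, against 19.5%, and RARA at 7, against 6.34%. These E2 lists were longer than their DMSO lists, with 18311 against 3768 peaks for JUN, and the effect of list length and that of E2 cannot be told apart. H3K4me3 was gained at H2BC26, H3C12 and H2AC17, against 1.29%, and lost at none, against 0.473%. H3K27me3 was gained at H2AC21, H3C2 and H1-4, against 18.1%, and lost at H4C8, against 0.318%. SIN3A was gained in Full Media at H3C12, H2AC17 and H2BC17, which share a promoter region, against 0.269%, and lost at H2AC7, against 8.63%. TAF1 was lost at H4C11, against 4.39%.

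In T-47D, losses summed over targets numbered 38 and gains 11, or 17 and 11 with the H3K27me3 lists left out. The same sums are not given over all genes, and genes that share a peak are each counted, so nothing is read from this balance. H3K27me3 was lost at all 21 members that had it, in an E2 list of 107 peaks. It was likewise lost at all 3489 genes that had it, which are 17.4% of all genes. Of the 21, 20 also had H3K4me3, near the 98.1% of the 3489 genes. All 21 had RNAPII in both DMSO libraries, but no share of the 3489 genes stands beside this count, so nothing is read from it. H2AC21, H3C2, H1-4 and H4C8 had the mark in 2 lists. H3K4me3 was lost at 7, H2BC26, H2BC5, H2BC9, H2BC10, H2AC16, H2AC17 and H2BC17, against 4.75%. RARA was lost at 8 and gained at 5, against 0.871% and 0.642%. More members had RARA under DMSO to begin with, 23.8% against 3.50% of all genes. Among genes with that DMSO peak it was lost at 8 of 15 members and 175 of 704 genes. The 5 gained genes lie in 2 groups of overlapping windows, H2AC25 with H2BC26 and H3C12 with H2AC17 and H2BC17, and the 8 lost genes in 7. TAF1 was gained at H3C1, H4C1, H3C4, H3C7 and H1-5, against 6.03%, and lost at H4C3 and H2AC16, against 1.77%. The TAF1 counts are near the background.

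JUN peaks in T-47D went down at some members and up at others, and the families were not tested against each other. Of 44 members with a JUN peak in both lists, 9 were lower with E2, or 20.5%, against 9.40% of all genes with both peaks. They included 4 of 7 H4 genes and 2 of 4 H1 genes, against 1 of 13 H2A, 2 of 12 H2B and 0 of 8 H3 genes. The H4 gene H4C3 went from 32.7 to 7.77, H4C5 from 31.6 to 15.6, H4C4 from 32.1 to 20.7 and H4C8 from 25.5 to 18.6. The other H4 genes were higher, with ratios of E2 to DMSO of 1.29 at H4C1, 1.52 at H4C11 and 1.15 at H4C12. The linker histone gene H1-3 went from 18.2 to 9.45. Among H2A and H2B genes, the divergent pair H2BC21 and H2AC20 went from 17.9 to 50.3, but different peaks are compared. The E2 peak was 2996 bp wide, with its summit 194 bp into the neighbouring gene H2AC21. That gene went from 31.1 to 50.3. The median ratio of E2 to DMSO was 0.732 over the H4 genes, 1.03 over the H1 genes and 1.18 over the H2B genes. It was 1.30 over the H3 genes, 1.40 over the H2A genes, 1.18 over all 44 members and 1.45 over all genes. Each list is 1 library, so the spread between replicates of these ratios is unknown. In Ishikawa all 12 members with both JUN peaks were higher with E2, as were 84.5% of all genes with both, and the median ratio was 1.36 at the members and 1.38 over all genes, so this is near the background.

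**Figure D3:**
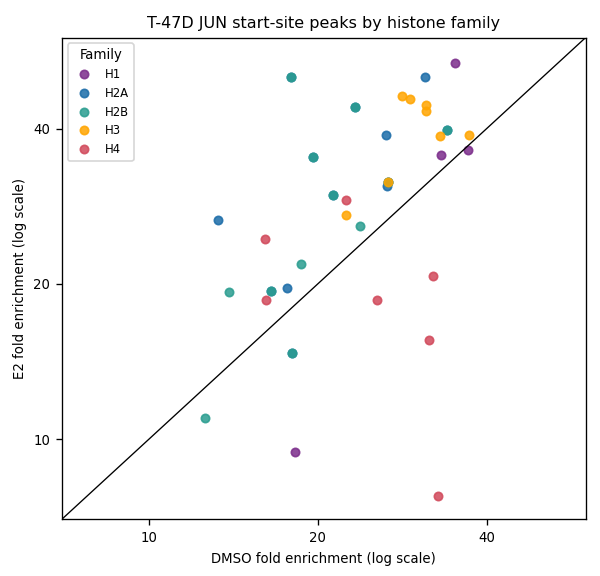
JUN fold enrichment of the start-site peak in T-47D with E2 (y axis) against DMSO (x axis), both on log scales, for the 44 members with a peak in both lists, coloured by histone family, 1 library each. Points under the black line of equality are lower with E2 and include 4 of the 7 H4 genes, the lowest being H4C3 at 7.77.

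RNAPII in T-47D was the only target with replicates. A start-site peak was in all 4 libraries at 40 members, or 63.5%, against 37.5% of all genes. With 2 libraries per treatment the exact two-sided permutation test over 6 assignments cannot give a p below 0.333, so no member could pass a threshold. Both E2 values lay below both DMSO values at 3 of the 46 members with a peak, or 6.52%, against 0.935% of 11339 genes, and above them at 0, against 0.256%. The 3 were the divergent pair H2BC4 and H2AC6, which share a peak, and H3C6.

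For H2BC4 and H2AC6 the fold enrichments were 37.7 and 31.9 in the DMSO libraries and 16.4 and 15.1 in the E2 libraries. The means were 34.8 ± 4.09 and 15.8 ± 0.887 (SD, n = 2 each), with an exact permutation p of 0.333. For H3C6 they were 13.9 and 18.2 against 13.4 and 11.4, a gap smaller than the spread within DMSO. H4C5 had values of 84.7 and 46.4 with DMSO and 38.8 and 49.2 with E2, which overlap. H1-2 had 95.1 and 32.8 against 43.0 and 39.6, which overlap as well.

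DMSO replicate 1 stood apart in scale. Over the 40 members with a peak in all 4 libraries, the median ratio of DMSO replicate 1 to replicate 2 was 2.45, and over all 7541 such genes 4.39. The median ratio of E2 to DMSO was 0.615 between the replicates numbered 1 and 1.02 between those numbered 2, against 0.474 and 1.26 over all such genes. Lower with E2 were 97.5% of these members and 98.3% of these genes between the replicates numbered 1. Between those numbered 2 the shares were 47.5% and 18.2%. Values of RNAPII fold enrichment therefore depend on the library. Leaving out DMSO replicate 2 gave 44 members lower with E2, while leaving out DMSO replicate 1 gave 18 higher. These counts have no share over all genes beside them, so they are not read as a trait of the members.

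**Figure D4:**
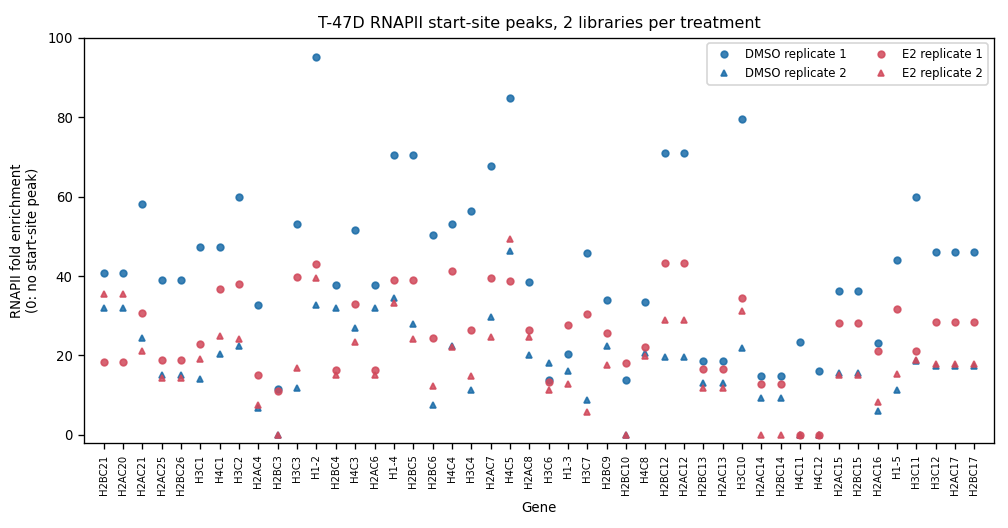
RNAPII fold enrichment of the start-site peak (y axis, 0 for no peak) of the 46 members with a peak in T-47D, with 2 DMSO libraries in blue and 2 E2 libraries in red (circles replicate 1, triangles replicate 2). DMSO replicate 1 reaches 95.1 at H1-2, and both red symbols lie under both blue ones at H2BC4, H2AC6 and H3C6.

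At H2AC14, an H2A gene on chromosome 6 with its start at 27782555 on the minus strand, the start-site RNAPII peak had values of 14.8 and 9.41 with DMSO and 12.8 and 0 with E2, so the groups overlap. A separate peak spanned the 3′ end of the gene, at chr6:27781728-27782292 in DMSO replicate 1 and chr6:27781712-27782162 in replicate 2, with fold enrichments of 11.7 and 13.1. It covered 213 and 83 bp of the gene, and in replicate 2 its summit lay 242 bp past the gene's end. Neither E2 library had a peak there. H2AC13, in the same group of genes, had body values of 12.5 and 5.23 with DMSO and 0 with E2. These 2 members had a body peak in both DMSO libraries and neither E2 library, as had 0.473% of all genes, and 0 showed the reverse, as did 0.139%. Since the peak at H2AC14 was known when the group was proposed, nothing is read from this count. At the start site 0 members were lost or gained in this way, against 0.0348% and 0.0249%. JUN was kept at the H2AC14 start, at 16.5 and 19.4.

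Summit positions differed among the targets. In the T-47D DMSO lists the median summit of RARA lay 101 bp upstream of the start, with 1 of 15 downstream, and the median over all genes was 74 bp upstream. TAF1 summits had a median of 16 bp downstream, JUN of 100 bp and H3K4me3 of 172 bp. The RNAPII medians did not settle on 1 side, being 78.0 bp downstream in DMSO replicate 1 and 6.0 bp upstream in DMSO replicate 2. A peak shared by divergent genes is counted for each, and a summit between their starts is upstream of both. Wide peaks can also bring in a neighbour's summit, as at H2BC5, 1759 bp upstream in RNAPII DMSO replicate 1, in the peak of H1-4. The medians therefore depend in part on pairing and peak width. For JUN the median over all genes was 28 bp, and for H3K4me3 170 bp. H3K4me3 overlapped the gene body beyond the start window at more members than the start window, 40 and 42 in T-47D with 65.3% and 62.9% of all genes, and 22 and 24 in Ishikawa with 69.7% and 70.3%.

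**Figure D5:**
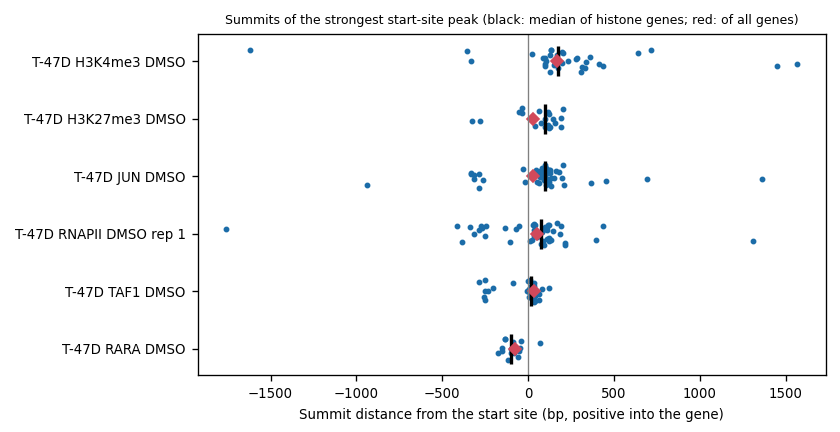
Distance in bp of the summit of the strongest start-site peak from the start site (x axis, positive into the gene) for each member with a peak in 6 T-47D DMSO lists. Black bars are the medians of the members and red diamonds those of all genes. RARA summits lie upstream, with a member median of -101 bp, and H3K4me3 summits downstream, with 172 bp. A peak shared by divergent genes is drawn for each gene.

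Genes that act on the histone genes, and a list of histone genes taken as replication-independent, were set beside the members. Of 24 regulators, among them NPAT and the stem-loop binding protein gene SLBP, 18 had H3K4me3 in both T-47D lists and 21 in both Ishikawa lists. The members had 28 and 16 of 63, and all genes 9600 and 11744 of 20098, so the members' T-47D count is near the background. Of 12 replication-independent histone genes the numbers were 11 and 10. RNAPII was in all 4 libraries at 18 regulators and 8 of these 12 genes, against 37.5% of all genes. In either list 0 had E2 values wholly above or wholly below the DMSO values. Of 11339 genes 0.256% lay above and 0.935% below, so these counts of 0 are near the background. H2AX, whose product marks DNA breaks, had start-site peaks in 27 lists, NPAT in 18 and SLBP in 20, while H2AJ had 12 in T-47D and 0 in Ishikawa.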

How the data were processed

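ChIP-seq peak lists of 45 samples were used, and 4 input samples were not analysed here. Per the methods and the submitters' processing notes, the authors aligned reads to hg19 with Bowtie 1.1.2, kept reads with 1 placement, and called peaks per library with MACS2 2.1.0.20140616. The authors deposited for each peak a fold enrichment (a ratio), a −log10 p-value, a −log10 q-value and a score. The smallest −log10 p-value was 10.0. Read depth is unknown from the lists.

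Genes came from GENCODE release 44 on GRCh37. The highest fold enrichment of peaks overlapping 250 bp either side of a 5′ end, or the body beyond it, was taken per gene. Groups came from the sample labels. RNAPII was compared by exact permutation, and all other targets were described with exact binomial 95% intervals. Uniqueness was counted over 50-base words of the genome. Scripts ran in Python 3.11.15 with numpy 2.4.6, pandas 2.3.3 and scipy 1.17.1, and the overlap step was tested on simulated peaks. Members, gene lists and named genes were chosen with earlier results of these data known. Named genes were H2AC14, members whose RNAPII values did not overlap between treatments, the strongest member per target, those in the most or fewest lists, those with H3K4me3 in 1 line alone, those with H3K27me3 in several lists and those with the least unique windows. Genes named for JUN changes were chosen after their values were seen. Alternatives are given in the closing section.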

Additional observations from a re-analysis of the deposited data

Results flagged for a closer look

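For 4 targets the number of members with a start-site peak changed with E2 in opposite directions in the lines, each with 1 library per group, so the difference was not tested. H3K4me3 changed by 3 in Ishikawa and by -7 in T-47D, a difference of 10 members. H3K27me3 changed by 2 and by -21, a difference of 23, with a T-47D E2 list of 107 peaks. TAF1 changed by -1 and by 3, a difference of -4. RARA changed by 7 and by -3, a difference of 10, with an Ishikawa DMSO list of 137 peaks. Over all genes the counts moved in the same directions at these targets. H3K4me3 went from 11839 to 12003 genes in Ishikawa and from 10555 to 9753 in T-47D. H3K27me3 went from 273 to 3839 and from 3489 to 0. TAF1 went from 10335 to 9488 and from 3683 to 4540, and RARA from 112 to 1386 and from 704 to 658.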

How the results depend on the processing

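The numbers of members with a peak in any list, by line and by chromosome, and the number of lists above background, 16, stayed within 1.5 times under every alternative run, from 12 to 18 lists. The sums over targets that follow are given for the members alone, without the same sums over all genes. Summed over targets, members gained in Ishikawa numbered 35, but 14 at a fold enrichment of at least 10 and 15 at equal list length. Ishikawa losses numbered 3, but 7 in a window of 1000 bp, 11 at the fold limit and 10 with the summit in the window. T-47D gains numbered 11, but 4, 20 and 7 at the fold limit, with the summit rule and at equal length, and losses 38, but 22 and 17 at the fold limit and at equal length, and 17 with the H3K27me3 lists left out, a choice made after seeing the data. H3K4me3 under DMSO in T-47D alone fell from 20 to 13 at the fold limit, and in Ishikawa alone rose from 1 to 4, or 2 with the summit rule. TAF1 in T-47D alone was 13, but 4 at the fold limit and 25 at equal length, and in Ishikawa alone 4, but 7 in the wide window, 15 at the fold limit and 1 at equal length. JUN in T-47D alone was 32, but 19 at equal length, and in Ishikawa alone 0, but 1 with the summit rule and 1 at equal length. The causes were not tested.

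Members with lower RNAPII numbered 3, but 5 in the wide window, 5 by percentile within the list, 5 at equal list length and 6 over the gene body, an alternative chosen after seeing the data. Members with higher RNAPII numbered 0, but 3 by percentile and 1 over the body. By percentile 5 of 46 members were lower, against 3.26% of all genes. The 3 of 46 that were higher by percentile, against 4.62%, are near the background. Leaving out 1 library gave from 3 to 44 lower and from 0 to 18 higher, without a share over all genes. With the replicate number as a block, 20 were lower, against 12.9% of all genes. Same-numbered libraries share only a number, and their deviations correlated at 0.260 over 7541 genes.

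Every target but RNAPII had 1 library per group, and the lists give no read depth, so a missing peak was not separated from a shallow library. Of 319 alternative values of 49 single-list and motif counts, 292 stayed within 1.5 times. Those that moved include T-47D TAF1, from 32 and 35 to 9 and 12, and T-47D RARA, from 15 and 12 to 4 and 0, both at a fold enrichment of at least 10. Motif counts used the annotated 5′ end.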
